A study of Mus musculus with 12 samples.

Results

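Cytosolic ribosomal protein genes encode the proteins of the large (60S) and small (40S) subunits of the ribosome that translates nuclear mRNAs. Members were the genes whose symbol in the platform annotation has the form Rpl or Rps with a number, or Rplp0, Rplp1, Rplp2 and Rpsa, which leaves out symbols of the pseudogene (-ps) form and the ribosomal S6 kinases but takes in Rps4l, a transcribed pseudogene in the RefSeq table. The array held 91 probes for 61 such symbols. Probes counted as detected at a detection p-value under 0.05, which compares a probe with the array's negative controls. Those detected on every array of 1 or more groups were kept, and the brightest kept probe stood for its gene. This left 54 members, 33 of the 60S and 21 of the 40S subunit, among 9527 genes measured. The 7 symbols without a kept probe were Rpl14, Rpl17, Rpl39l, Rpl6, Rps20, Rps23 and Rpsa, and Rpl14 was the only one of them detected on as many as 5 of the 12 arrays.

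The ribosome is built in the nucleolus, where RNA polymerase I makes the precursor of most ribosomal RNA and where small nucleolar ribonucleoproteins and assembly factors process it while ribosomal proteins join. Most vertebrate ribosomal protein mRNAs begin with a C followed by an unbroken run of pyrimidines, the 5' terminal oligopyrimidine (TOP) tract, through which the kinase mTOR and the protein Larp1 control their translation. Translation is low in self-renewing mouse embryonic stem (ES) cells and rises as they differentiate. Histone deacetylases 1 and 2 are the core enzymes of several co-repressor complexes.

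RNA came from E14 cells, a male ES cell line of strain 129/Ola grown on gelatin without feeder cells, and was hybridised to 12 Illumina bead arrays with 3 arrays in each of 4 groups. The wild type groups were Day 0 cells, and the deleted groups were HDAC1-/-; HDAC2-/wt cells on Day 4, in which 16 h of 1 uM 4-hydroxytamoxifen (OHT) had switched on a CreER recombinase. Each genotype was studied with leukaemia inhibitory factor (LIF), the cytokine that holds mouse ES cells in self-renewal, and after 4 days without it. The OHT label stood on all 12 samples, wild type included, so genotype and day cannot be told apart. The labels name 1 cell line and no clones, and whether replicates were separate cultures is not stated, so that p-values measure only the spread between these arrays, which may be technical. In bulk RNA, fewer cells of a type and less RNA per cell cannot be told apart.

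All 12 ES cell marker genes chosen had a kept probe, and 11 were detected on all 12 arrays. Of 10 fibroblast genes 4 had a kept probe, and of 5 blood genes 1. No probe carried the symbol Hdac1 in the annotation used here. The Hdac2 probe read 11.48, 11.27 and 11.46 in wild type and 11.08, 11.27 and 11.14 in deleted cells with LIF, and 11.06, 11.26 and 11.29 against 10.89, 11.13 and 11.20 without it. These and all levels that follow are log2 intensities, in the order of replicates 1, 2 and 3, and Hdac2 did not pass in either comparison (limma adjusted p = 0.174 and 0.48). The deposited tables disagree on sample names. Each processed column had the rank order of a non-normalized column whose number belongs to another sample. That sample was of the same day (12 of 12) but of the other culture and of another replicate number (the same in 0 of 12). The direction of every effect of LIF therefore rests on the naming by sample record used here. By this naming the ES cell markers were lower without LIF, 8 of 12 called in wild type and 9 of 12 in deleted cells and the rest below 0, with Esrrb, a self-renewal factor, at -2.51 and -1.85. Under the other naming the deletion comparisons exchange cultures, and the LIF effects and the interaction change sign. On array 3 of wild type cells with LIF, 12 members lay over 0.3 from the mean of the other 2 arrays of the group, 11 of them lower. On the other 11 arrays between 0 and 8 members did. Over all genes the share this far out was 18.9% on that array, and it was higher on array 1 of wild type cells with LIF (20.7%) and on array 1 of wild type (23.7%) and deleted cells (22.9%) without LIF. This array also had the highest median intensity before normalization, 215.65 against 91.18 to 167.23 on the others.

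The bases around the annotated transcription start are shown because the TOP tract begins there. Of the 54 members, 45 matched a promoter of the RefSeq table (build GRCm38.p6), and the first start listed was used. A run of at least 8 bases, all C or T and beginning with C, started within 20 bases of the start on the gene's strand in 11 of these 45 (24.4%), against 2819 of 27025 genes in the table (10.4%). Only this pattern was searched, and a run is a description of these letters, not a mapped start. The windows below span 30 bases before the start to its first 20 bases, with the run in capitals. The first 4 belong to members that passed a test, and the other 4 hold the longest runs among the rest.
Rpl13a, chr7:45128726-45128775, minus strand: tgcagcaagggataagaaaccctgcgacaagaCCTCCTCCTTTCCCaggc
Rpl3l, chr17:24727796-24727845, plus strand: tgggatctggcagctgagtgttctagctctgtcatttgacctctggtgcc
Rplp0, chr5:115559437-115559486, plus strand: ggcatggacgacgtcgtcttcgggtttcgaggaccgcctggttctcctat
Rps7, chr12:28635934-28635983, minus strand: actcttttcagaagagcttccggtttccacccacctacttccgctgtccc
Rpl27a, chr7:109519165-109519214, plus strand: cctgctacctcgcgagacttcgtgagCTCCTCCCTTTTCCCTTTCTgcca
Rpl35, chr2:39005112-39005161, minus strand: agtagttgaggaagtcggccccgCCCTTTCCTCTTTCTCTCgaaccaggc
Rpl31, chr1:39367821-39367870, plus strand: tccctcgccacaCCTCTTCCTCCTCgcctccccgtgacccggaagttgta
Rps10, chr17:27635225-27635274, minus strand: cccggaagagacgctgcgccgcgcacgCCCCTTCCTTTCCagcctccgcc
Of the members that passed, Rpl13a alone of the 4 shown had such a run, of 14 bases. Rpl3l, with 2 starts in the table, had none longer than 5 at the start used, and Rpl30 and Rps4l are not shown.

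The ribosomal protein probes were among the brightest on the array. Member means over the 12 arrays ran from 7.39 (Rpl22l1) to 14.91 (Rpl41) with a median of 13.65, against a median of 8.11 over all genes. Of the 54 members, 46 lay at or above 10.48, the level that marks off the brightest 10% of genes, and 35 were among the 96 genes of the top 1%. The ceiling of the processed table was 15.10, so that the brightest members had little room above them. Probes differ in how strongly they bind, and these levels do not rank the mRNAs. Rpl22l1 (7.39), Rps15a (7.49), Rpl7a (7.71), Rpl21 (7.83) and Rpl3l (7.85) were the dimmest. Between arrays the median of all members moved little. It lay between 13.65 and 13.71 in wild type cells with LIF, between 13.58 and 13.78 in deleted cells with LIF, between 13.62 and 13.80 in wild type cells without LIF and between 13.58 and 13.75 in deleted cells without LIF, so that all 4 groups overlapped. The processed columns share 1 distribution of values, which holds the summed level of the brightest probes nearly fixed, so a change of all members together could not appear in full.

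**Figure D1:**
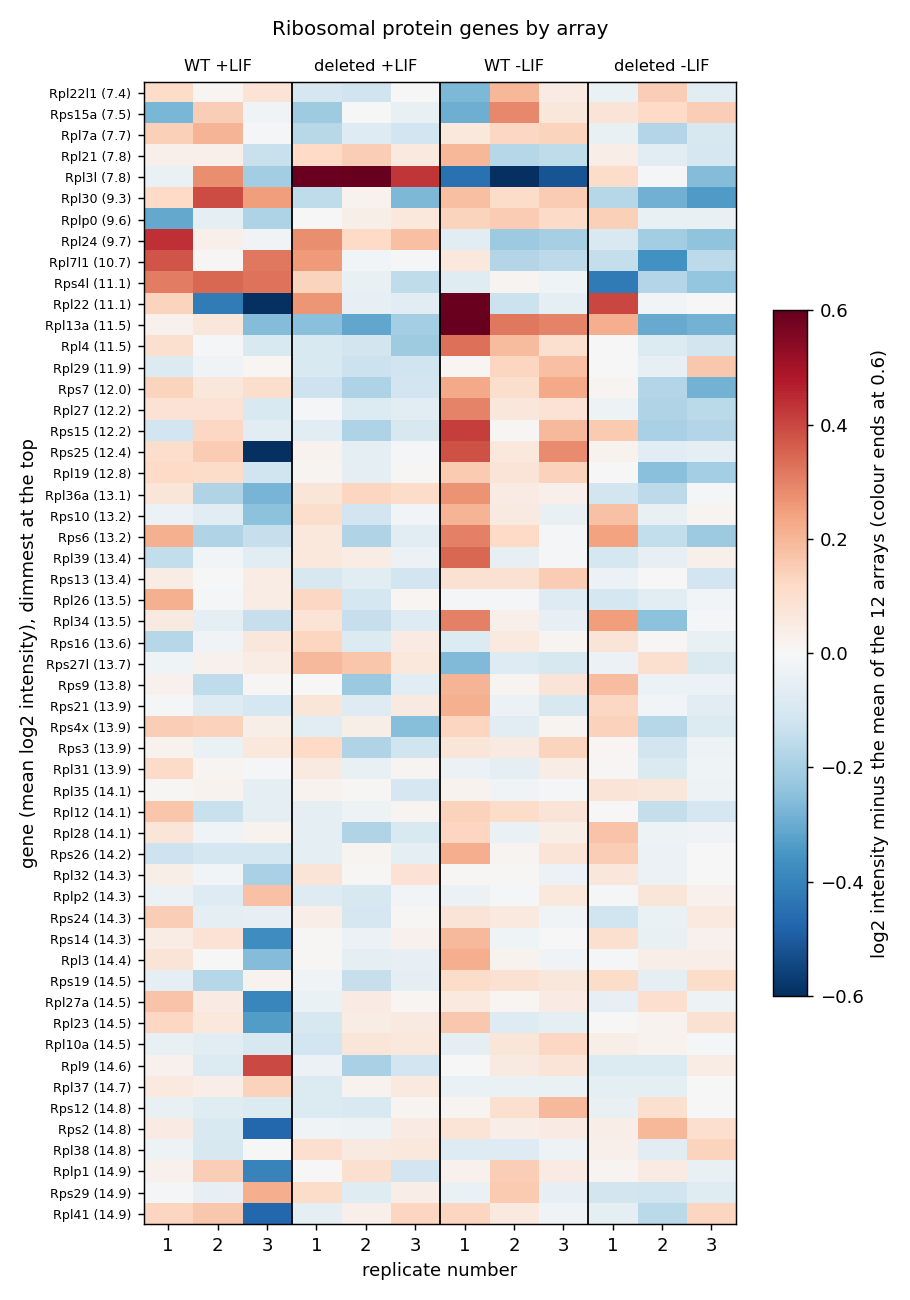
Each cell is 1 of the 54 members (rows, dimmest at the top, mean log2 intensity in brackets) on 1 of the 12 arrays (columns, replicates 1 to 3 of each group), coloured by its log2 intensity minus its mean over the 12 arrays. Most rows are pale, Rpl3l is high in deleted cells with LIF and low in wild type cells without LIF, and array 3 of wild type cells with LIF is dark blue for several of the brightest members.

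In cells with LIF, the deletion moved few ribosomal protein genes. Of 54 members 3 passed (limma, Benjamini-Hochberg adjusted p under 0.05 over 9527 genes), 1 higher and 2 lower, a share of 5.56% against 10.8% of all genes (6.93% higher and 3.88% lower). The median member difference was -0.01, against 0.02 over all genes, with 29 of 54 below 0. The groups did not overlap for 14 members (25.9%), against 31.5% of all genes. With replicate number as a block, 5 members passed, 2 higher and 3 lower, against 22.6% of all genes. Markers of other cells moved in the same comparison. Of the 4 kept fibroblast genes Thy1 (0.99, adjusted p = 0.0172) and Col1a1 (0.33, adjusted p = 0.0229) rose, and their summed level went from between 9.65 and 9.92 to between 10.42 and 10.51. The 1 kept blood gene, Hba-a1, rose too (0.59, adjusted p = 0.0246). Only 1 of the 4 fibroblast genes, and not Hba-a1, was detected on all 12 arrays. Col1a1 read 6.87, 6.85 and 6.78 in wild type and 7.22, 7.17 and 7.10 in deleted cells. Hba-a1 read 7.02, 6.88 and 6.93 against 7.77, 7.38 and 7.45. A probe could be kept through 1 group alone, so a rise of genes this dim can come from the filter, which was not tested. Of the 12 ES cell markers Pou5f1 (-0.48) and Tcl1 (-0.42) fell, with a summed level between 15.77 and 15.85 in wild type and between 15.69 and 15.79 in deleted cells. The part of these markers in the results with LIF was not tested. Without LIF none of the fibroblast or blood genes passed, and 1 did with the replicate block in each list.

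Rpl3l, a paralog of Rpl3 known from heart and skeletal muscle, was the member that rose. It read 7.81, 8.13 and 7.64 in wild type cells with LIF and 8.44, 8.72 and 8.28 in deleted cells with LIF. Every deleted array was above every wild type array, by 0.62 on average (SE 0.15, 1.54-fold, limma adjusted p = 0.0202). Without LIF it read 7.40, 7.05 and 7.33 in wild type and 7.96, 7.84 and 7.59 in deleted cells. The groups were again apart, with a difference of 0.54 (SE 0.15, 1.45-fold, limma adjusted p = 0.0354). It was detected on 11 of 12 arrays, missing on 1 of wild type cells without LIF, so its lowest readings lie near the detection limit. The call with LIF was lost without wild type array 3 (0.51, adjusted p = 0.0892), deleted array 1 (0.64, 0.0583) or deleted array 2 (0.50, 0.0834). Without LIF it was lost without wild type array 2 (0.43, 0.143) or 3 (0.57, 0.0837) and without deleted array 1 (0.46, 0.0995) or 2 (0.51, 0.0917). Its size moved with the handling of background. With LIF it was 0.98 (adjusted p = 0.0675) by a neqc-type route, which estimates background from the detection p-values, and 1.01 (adjusted p = 0.0904) with background correction and median scaling over detected probes, neither passing. Without LIF the latter gave 1.19 (adjusted p = 0.0522), and over all settings run the difference without LIF lay between 0.43 and 1.23. Rpl3 itself, the widely expressed form, read 14.52, 14.44 and 14.18 in wild type and 14.45, 14.38 and 14.39 in deleted cells with LIF, ranges that overlap, and it passed in none of the comparisons.

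Rpl30, a 60S protein known in yeast for binding its own transcript, fell in both cultures. With LIF it read 9.43, 9.70 and 9.56 in wild type and 9.16, 9.33 and 9.04 in deleted cells. Without LIF the readings were 9.49, 9.42 and 9.46 against 9.14, 9.02 and 8.97. Each deleted array lay below each wild type array of its culture. The differences were -0.39 (SE 0.10, 0.764-fold, limma adjusted p = 0.0249) with LIF and -0.41 (SE 0.10, 0.752-fold, adjusted p = 0.0178) without it. Its other kept probe gave -0.24 in both. The call with LIF was lost without wild type array 2 (-0.32, adjusted p = 0.0937) or 3 (-0.39, 0.071) and without deleted array 1 (-0.38, 0.0854) or 3 (-0.32, 0.11). Without LIF it was lost without wild type array 3 (-0.41, 0.0668) and without deleted array 2 (-0.40, 0.0531) or 3 (-0.37, 0.0724). Under 9 other settings run, the call stood in 5 with LIF and in 6 without it. Scaling to the median of all probes gave -0.31 with LIF (limma adjusted p = 0.396) and -0.28 without it (0.483).

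Rps4l, a relative of Rps4x, fell with the deletion in LIF. It read 11.35, 11.39 and 11.37 in wild type and 11.18, 11.00 and 10.89 in deleted cells. The groups did not overlap, with a difference of -0.35 (SE 0.09, 0.787-fold, limma adjusted p = 0.0325). Without LIF it read 10.97, 11.06 and 11.02 against 10.62, 10.87 and 10.81, a difference of -0.25 that missed the threshold (95% interval -0.45 to -0.05, adjusted p = 0.104). The call with LIF was lost without wild type array 2 (-0.34, adjusted p = 0.0869) or 3 (-0.35, 0.089) and without deleted array 2 (-0.33, 0.0937) or 3 (-0.28, 0.14). It stood under 4 of 9 other settings run, and scaling to the median of all probes gave -0.26 (limma adjusted p = 0.521). With the replicate block Rpl22 (0.36, adjusted p = 0.0121) and Rps7 (-0.24, adjusted p = 0.0482) passed as well. Rpl22, whose loss in mice impairs T cell development, read 11.25, 10.70 and 10.46 in wild type and 11.38, 11.07 and 11.05 in deleted cells with LIF. Those groups overlapped, while within each replicate number the deleted array was higher.

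**Figure D2:**
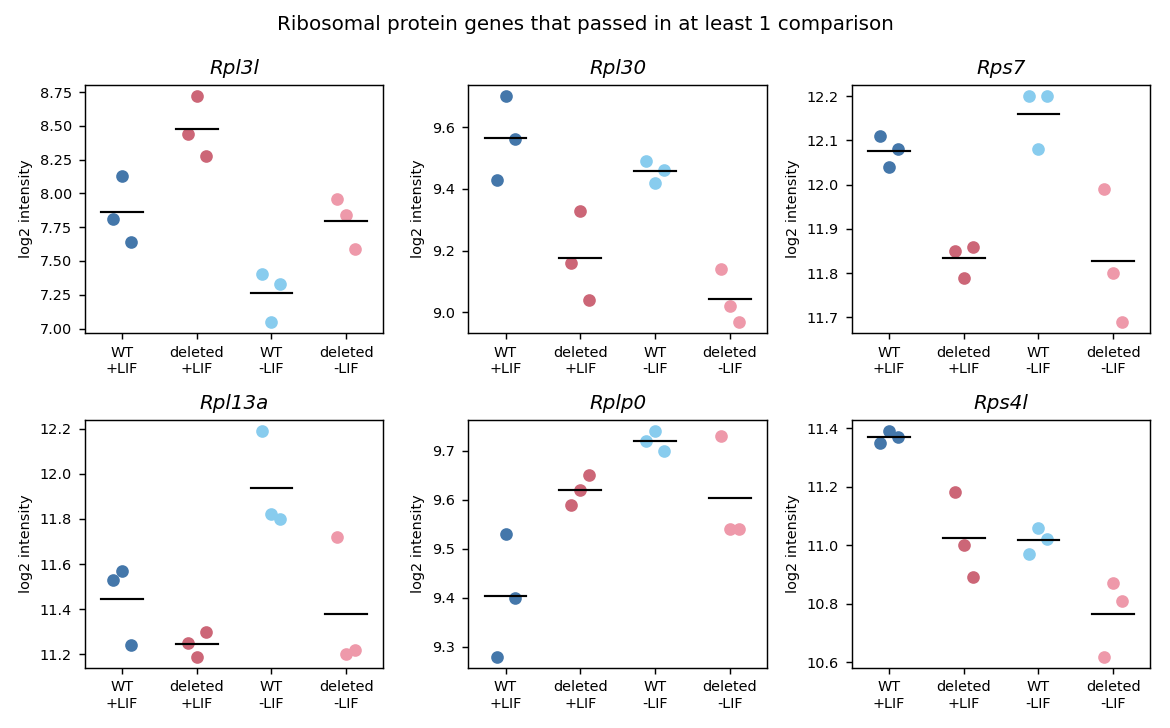
Log2 intensity of the 6 members that passed in at least 1 comparison, with 1 point for each array and a bar at the mean of the 3 arrays of each group (WT, wild type), each panel on its own axis. Rpl3l is higher and Rpl30 lower in deleted than in wild type cells of both cultures, with no overlap.

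Without LIF, Rpl13a, Rpl30 and Rps7 fell and Rpl3l rose with the deletion. These 4 of 54 members made a share of 7.41% against 11.2% of all genes (6.27% higher and 4.96% lower). The median member difference was -0.07, against 0.00 over all genes, and 42 of 54 members were below 0, against 49.5% of all genes. The groups did not overlap for 15 members (27.8%), against 29.5% of all genes. With the replicate block 7 passed, 1 higher and 6 lower, against 23.5% of all genes. The share of members called was under that of all genes with and without the block.

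Rpl13a, a 60S protein that in human cells also takes part in silencing inflammatory mRNAs after release from the ribosome, fell without LIF. It read 12.19, 11.82 and 11.80 in wild type and 11.72, 11.20 and 11.22 in deleted cells. The groups did not overlap, and array 1 was the highest in each. The difference was -0.56 (SE 0.15, 0.68-fold, limma adjusted p = 0.0272). With LIF it read 11.53, 11.57 and 11.24 against 11.25, 11.19 and 11.30, ranges that overlap, and did not pass (-0.20, 95% interval -0.52 to 0.11). The call was lost without any 1 of the wild type arrays (adjusted p = 0.0747, 0.051 and 0.0522 without arrays 1, 2 and 3) and without deleted array 2 (0.0955) or 3 (0.109). It stood under 6 of 9 other settings run. Background correction with median scaling over detected probes gave -0.65 (limma adjusted p = 0.114).

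Rps7, a 40S protein that binds Mdm2 and whose gene is among those mutated in Diamond-Blackfan anaemia, also fell without LIF. It read 12.20, 12.08 and 12.20 in wild type and 11.99, 11.80 and 11.69 in deleted cells, with no overlap. The difference was -0.33 (SE 0.09, 0.793-fold, limma adjusted p = 0.0289). With LIF the readings were 12.11, 12.04 and 12.08 against 11.85, 11.79 and 11.86, also without overlap, a difference of -0.24 that missed the threshold (adjusted p = 0.0995). The call without LIF was lost without wild type array 1 (-0.31, adjusted p = 0.0622) or 3 (-0.31, 0.108) and without deleted array 2 (-0.32, 0.0766) or 3 (-0.27, 0.117). It stood under 5 of 9 other settings run, and scaling to the median of all probes gave -0.24 (limma adjusted p = 0.412). Rpl19 (-0.28, adjusted p = 0.0262), Rpl27 (-0.27, adjusted p = 0.0234) and Rpl4 (-0.27, adjusted p = 0.0192), all of the 60S subunit, passed with the replicate block.

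**Figure D3:**
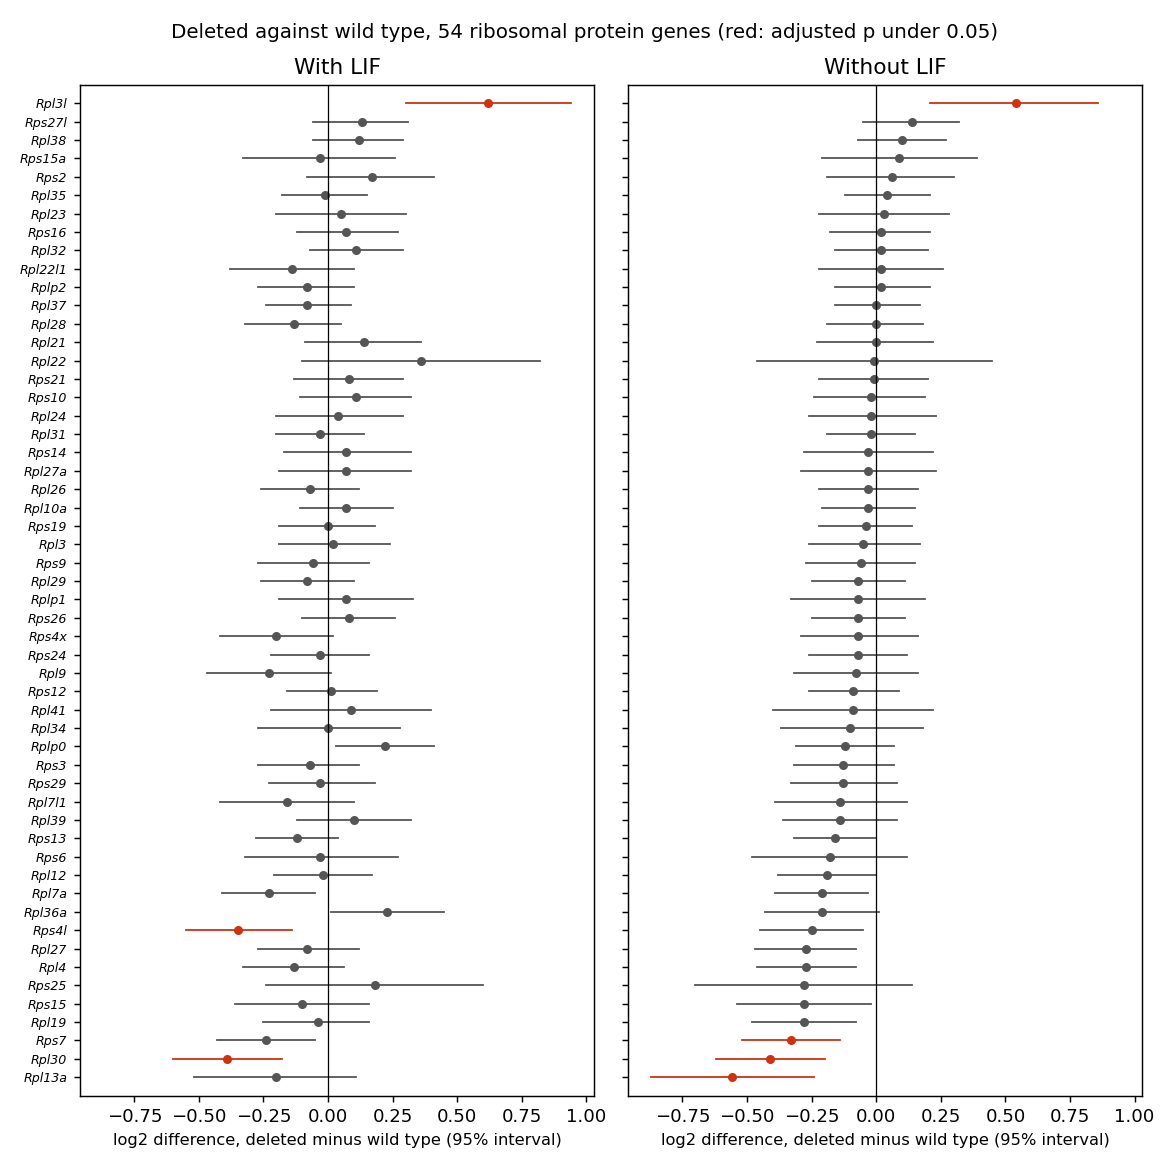
Log2 difference of deleted minus wild type cells for the 54 members with LIF (left) and without it (right), each with its 95% interval, ordered by the difference without LIF and red where the adjusted p was under 0.05. The 3 red members on the left and the 4 on the right include Rpl3l at the top and Rpl30 near the bottom, and 42 points on the right lie below 0.

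Members of middle signal level were lower with the deletion without LIF, few of them past the threshold. Grouped after the data were seen, 11 members had a mean between 10 and 13 on the log2 scale: Rpl13a, Rpl19, Rpl22, Rpl27, Rpl29, Rpl4, Rpl7l1, Rps15, Rps25, Rps4l and Rps7. All 11 had a difference below 0, from -0.56 to -0.01 with a median of -0.27, against 0.02 for the 1291 other genes of that level. The groups did not overlap for 7 of the 11 (29.5% of all genes). Of the 11 members 2 passed, against 17.7% of the 1291 others, and 5 passed with the block (23.5% of all genes). The 8 members below 10 had a median of -0.01, with 5 below 0. The per-array median of the 11 was 12.19, 12.04 and 12.09 in wild type and 11.91, 11.80 and 11.69 in deleted cells without LIF, a gap with no overlap. With LIF it was 11.83, 11.89 and 11.56 against 11.82, 11.78 and 11.79, where the groups overlapped only through wild type array 3. The median difference with LIF was -0.10, with 9 of 11 below 0. Leaving out that array gave -0.14, with 10 of 11 below 0. Of all 16 kept member probes of this level, 16 were below 0 without LIF and 13 with it. The median without LIF was -0.21 with 10 of 11 below 0 when wild type array 1 was left out, and ran from -0.31 to -0.21 over the 12 arrays left out in turn.

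The 35 members above 13 differed less in the processed values, with a median of -0.04 without LIF and 26 below 0, and 0.01 with LIF. That small size depends on the scaling. When the non-normalized intensities were instead moved to a common median over the detected probes, the 35 members had a median of -0.24 without LIF, with 34 below 0, close to the -0.29 of the 11 members of middle level, and the 63 other genes of that level had -0.09. With LIF the same scaling gave 0.09 for the members and 0.10 for the others. None of the 35 passed under either scaling.

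**Figure D4:**
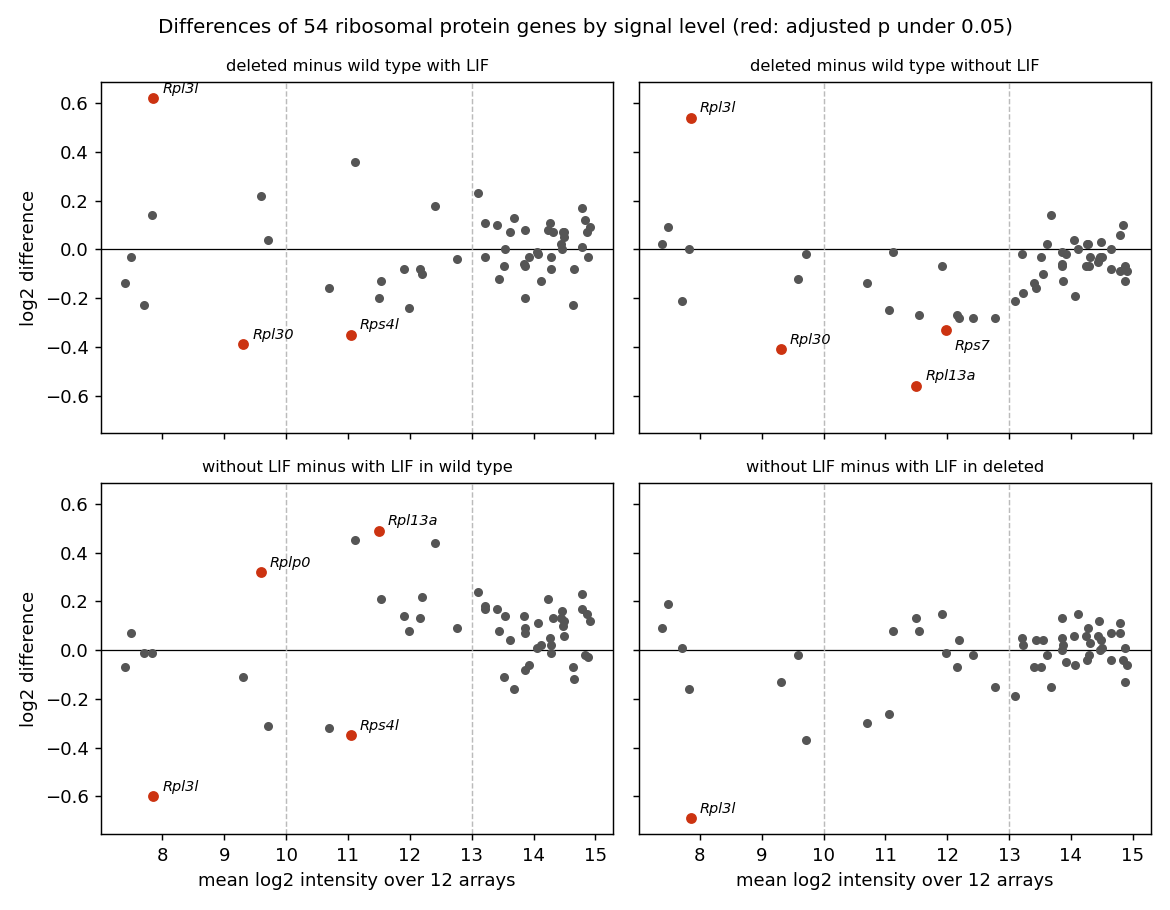
Log2 difference of each of the 54 members against its mean log2 intensity over 12 arrays, for 4 comparisons, with dashed lines at 10 and 13 and red points where the adjusted p was under 0.05. In deleted minus wild type cells without LIF the 11 points between the lines lie below 0 and the 35 points above 13 lie close to it.

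Removal of LIF from wild type cells, which starts spontaneous differentiation, left most ribosomal protein genes within the spread between arrays in the processed values. Of 54 members 4 passed, 2 higher and 2 lower, a share of 7.41% against 21.2% of all genes (11.0% higher and 10.2% lower). The median member difference was 0.09, against 0.00 over all genes, with 37 of 54 above 0. The 35 members above 13 had a median of 0.09, with 9 below 0. With scaling over detected probes their median was 0.26, with 1 below 0, against 0.12 for the 63 other genes of that level. None of the 35 passed under either scaling. The groups did not overlap for 12 members (22.2%), against 35.0% of all genes. The same removal lowered 8 of 12 ES cell markers, whose summed level went from between 15.77 and 15.85 with LIF to between 15.07 and 15.19 without it.

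Rpl13a rose by 0.49 (SE 0.15, 1.4-fold, limma adjusted p = 0.03) when LIF was removed from wild type cells, its 3 arrays without LIF all above the 3 with it. The call was lost without array 3 with LIF (0.38, adjusted p = 0.114) or array 1 without LIF (0.36, adjusted p = 0.11), and stood under 5 of 9 other settings run. Rplp0, the base of the ribosomal stalk that recruits translation factors, rose from 9.28, 9.53 and 9.40 to 9.72, 9.74 and 9.70. The difference was 0.32 (SE 0.09, 1.25-fold, limma adjusted p = 0.0191), and the call was lost without array 1 with LIF (0.26, adjusted p = 0.0653) or array 2 without LIF (0.31, adjusted p = 0.0586). Under scaling to the median of all probes it was 0.13. Its stalk partners Rplp1 and Rplp2 passed in no comparison. Rplp1 read 14.90, 15.02 and 14.47 in wild type cells with LIF and 14.90, 15.02 and 14.92 without it, and Rplp2 read 14.25, 14.21 and 14.46 against 14.25, 14.28 and 14.35, so that both overlapped.

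Rpl3l and Rps4l fell when LIF was removed from wild type cells. The Rpl3l difference was -0.60 (SE 0.15, 0.659-fold, limma adjusted p = 0.0115) and that of Rps4l -0.35 (SE 0.09, 0.782-fold, limma adjusted p = 0.0162), each with all 3 arrays without LIF below all 3 with it. The Rpl3l call was lost without array 2 with LIF (-0.47, adjusted p = 0.0588) or array 2 without LIF (-0.50, adjusted p = 0.0555). Median scaling over detected probes lost it too (-0.50, adjusted p = 0.0716). That of Rps4l stood with any 1 of the 12 arrays left out. It was lost under median scaling over all probes (-0.54, adjusted p = 0.0859). Background correction with median scaling over detected probes also lost it (-0.35, adjusted p = 0.0788). Over all settings run the Rpl3l difference lay between -1.34 and -0.47. The comparison shares its wild type arrays with the deletion comparisons, so the readings of the members are set side by side here and no relation between the comparisons is drawn.

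In deleted cells 1 of 54 members passed on LIF removal, a share of 1.85% against 11.2% of all genes (5.26% higher and 5.94% lower). This was Rpl3l, which fell by 0.69 (SE 0.15, 0.622-fold, limma adjusted p = 0.00907), with no overlap between 8.44, 8.72 and 8.28 and 7.96, 7.84 and 7.59. The call was lost without array 2 of the deleted cells with LIF (-0.57, adjusted p = 0.0518) and under background correction with median scaling over detected probes (-1.08, adjusted p = 0.0662). The median member difference was 0.01, against -0.02 over all genes, with 25 of 54 below 0, and the groups did not overlap for 10 members (18.5%), against 31.3% of all genes. With the replicate block 3 passed, all lower, against 20.9% of all genes. The added members were Rpl24 (-0.37, adjusted p = 0.00482), the gene of the mouse Belly spot and tail mutant, and Rpl7l1 (-0.30, adjusted p = 0.0189), a paralog of Rpl7. Rpl24 read 9.99, 9.83 and 9.89 with LIF and 9.62, 9.50 and 9.47 without it, with no overlap, and missed the threshold without the block (adjusted p = 0.0514).

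No member passed the test of whether the deletion acted differently in the 2 cultures (limma interaction), against 0.084% of all genes. At an unadjusted p under 0.05 there were 2 members, Rpl36a (-0.44, 95% interval -0.75 to -0.13, adjusted p = 0.489) and Rplp0 (-0.34, 95% interval -0.60 to -0.07, adjusted p = 0.547). The replicate block also gave 0. Rpl36a, a 60S protein encoded on the X chromosome, read 13.17, 12.92 and 12.82 in wild type and 13.17, 13.23 and 13.21 in deleted cells with LIF, and 13.37, 13.15 and 13.13 against 12.99, 12.94 and 13.09 without it. The median interaction over the members was -0.09, against -0.02 over all genes, with 39 of 54 below 0. The difference between cultures in Rpl13a was -0.35 with a 95% interval of -0.80 to 0.09, so a deletion effect confined to cells without LIF was not shown for it.

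Over the 4 comparisons 6 of 54 members passed at least once (13 with the replicate block) and 48 never did. The share of all genes that passed at least once was not computed. In single comparisons 1.85% to 7.41% of members passed, against 10.8% to 21.2% of all genes. The precision of the arrays limits how small a change of each of those 48 could be seen in the processed values. These share 1 distribution, so the intervals do not bound a change of all members together. Under scaling over detected probes the 35 members above 13 had a median of -0.24 for the deletion without LIF, against -0.04. The 95% interval of a member had a median half-width of 0.21, and it lay wholly within 0.5 of 0, a 1.41-fold change, for 48 of 54 members in each deletion comparison, 46 for LIF removal in wild type and 50 in deleted cells. Group means of a member differed by 0.06 (Rpl35) to 1.22 (Rpl3l).

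Members known for roles beyond the core of translation were among those that passed in no comparison. Rps6, the substrate of the S6 kinases, read 13.43, 13.04 and 13.08 in wild type and 13.28, 13.04 and 13.15 in deleted cells with LIF, which overlap. Rps19, the gene most often mutated in Diamond-Blackfan anaemia, read 14.40, 14.29 and 14.48 against 14.44, 14.32 and 14.40, which overlap too. Rps27l, a paralog of Rps27 that p53 activates in human cells, read 13.65, 13.70 and 13.72 against 13.87, 13.84 and 13.74. Those groups did not overlap, but the gene did not pass. Of the paralogs, Rpl22l1 stayed between 7.12 and 7.59 over the 12 arrays and Rpl39 between 13.26 and 13.75, while Rpl39l, which in mice is known from testis, was detected on 2 arrays. Rpl5 and Rpl11, which with 5S rRNA bind Mdm2, had no kept probe under these symbols and are not analysed here.

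Different probes of 1 gene did not always agree, and 43 of the 54 members have at least 1 named pseudogene in the RefSeq table, 212 in all, with which a short probe could share sequence. Of the 54 members 15 had more than 1 kept probe. Rpl38, which in mouse embryos is needed to translate Hox mRNAs, had a bright probe (ILMN_3135931) at 0.10 and a dimmer one (ILMN_2594971) at -0.45 for the deletion without LIF (adjusted p = 0.0466 over 15999 probes, of which 8.61% passed). The dimmer probe read 10.24, 9.92 and 9.86 in wild type and 9.80, 9.41 and 9.46 in deleted cells, with no overlap, and the bright one 14.76, 14.76 and 14.81 against 14.87, 14.77 and 14.97, which overlap. The direction for Rpl38 is thus unsettled, and the call of the dimmer probe was lost without any 1 of 9 of the 12 arrays, wild type arrays 1, 2 and 3 without LIF (adjusted p = 0.126, 0.0848 and 0.0699) among them. Rpl23, a 60S protein that binds Mdm2, had 1 of 3 probes (ILMN_2946482) at -0.42 on LIF removal in wild type cells (adjusted p = 0.0329, where 18.2% of probes passed). Its brightest probe was at 0.06 and its dimmest at 0.18. Dimmer probes of Rpl31 (-0.37) and Rps24 (-0.43) also passed for the deletion without LIF, where the brightest probes of these genes were at -0.02 and -0.07. The Rpl23 call was lost without array 1 (adjusted p = 0.0922) or 2 (0.112) of wild type cells with LIF and array 2 (0.0909) or 3 (0.146) without it, and those of the Rpl31 and Rps24 probes without any 1 of the 3 wild type arrays without LIF, at adjusted p from 0.0599 to 0.115.

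Members varied little together. The Pearson correlation over the 12 arrays between pairs of members had a median of 0.12 and an interquartile range of -0.16 to 0.40 over 1431 pairs, which share arrays and normalization. The patterns most like that of Rpl3l were those of Lin7b (0.962), Dad1 (0.961) and Sema7a (0.96), and those most like Rpl13a were Gstt2 (0.972), Preb (0.967) and Creld1 (0.953), each over 12 arrays. These 2 members had the widest ranges of group means, 1.22 and 0.69.

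Several genes that build ribosomes fell with the deletion. With LIF 10 of 37 measured 60S assembly factors passed, all lower, a share of 27.0% against 3.88% of all genes lower, with a median of -0.26 (0.02 over all genes) and 36 of 37 below 0. Brix1, needed to process the precursor of the large-subunit RNA, read 11.61, 11.64 and 11.81 in wild type and 11.05, 11.15 and 11.17 in deleted cells with LIF, a fall of 0.57 without overlap (SE 0.08, limma adjusted p = 0.00129). Ddx51 (-0.56, adjusted p = 0.00764) and Rrp1b (-0.54, adjusted p = 0.00628) followed. Of 35 genes of the small nucleolar ribonucleoproteins and 40S processing 4 passed, all lower (11.4%), with a median of -0.24. Nop56, a core protein of the box C/D particles that guide RNA methylation, read 10.08, 10.55 and 10.67 in wild type and 9.59, 9.60 and 9.57 in deleted cells, a fall of 0.85 without overlap (SE 0.12, limma adjusted p = 0.00135). Wdr43 (-0.61) and Nop58 (-0.40), its partner in the box C/D particle, fell too. Of 15 RNA polymerase I genes 3 passed, all lower: Polr1a (-0.40), the largest subunit, and the initiation factors Ubtf (-0.40) and Rrn3 (-0.35). With the replicate block 16 assembly factors, 14 of the small nucleolar and 40S processing genes and 6 RNA polymerase I genes were lower and 1 of the last was higher, where 22.6% of all genes passed in either direction. The fibroblast and blood markers given above moved in the same comparison, and their part was not tested. The count of 10 assembly factors was 3 without array 2 of wild type cells with LIF, 4 without array 3, 4, 3 and 3 without arrays 1, 2 and 3 of deleted cells with LIF, and 5 without array 3 of wild type cells without LIF. That of 4 processing genes was 13 without array 1 of wild type cells with LIF and 2 without its array 3, and that of 3 RNA polymerase I genes was as low as 1 without an array of wild type or deleted cells with LIF. The calls of Brix1, Ddx51, Rrp1b, Nop56, Wdr43 and Polr1a stood with any 1 of the 12 arrays left out. All 6 were lost under median scaling over all probes (adjusted p = 0.121, 0.193, 0.252, 0.0687, 0.0683 and 0.419 in that order), where each was still below 0, and Polr1a was lost under 4 of 9 settings in all, at -0.18 with the mean of kept probes. The lists were not tested against one another.

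Other translation genes showed both directions with LIF, where 6.93% of all genes were called higher and 3.88% lower. Mitochondrial ribosomal proteins, encoded in the nucleus and built into a separate ribosome, had 1 higher and 10 lower of 72 (13.9% lower). Their median was -0.11, and 3 were higher and 17 lower with the replicate block. Mrps18b (-0.54), Mrpl21 (-0.53) and Mrpl17 (-0.52) fell most. Of 29 initiation factors Eif1b (0.49) and Eif2s2 (0.38) rose and Eif3l (-0.36) fell (3.45% lower), near the shares of all genes. None of 7 elongation factors and none of 13 growth regulators passed, among 9527 genes tested by limma, and with the replicate block 0 of 7 and 1 of 13 did. Of 13 other mRNAs known to carry a TOP tract, Pabpc1, the cytoplasmic poly(A)-binding protein, alone passed and rose (0.51, adjusted p = 0.0385), where 10.8% of all genes passed. Its call was lost without any 1 of 6 of the 12 arrays. Pabpc1 read 11.70, 11.40 and 11.77 in wild type and 12.15, 11.93 and 12.34 in deleted cells, without overlap.

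Without LIF, 5 of 37 assembly factors fell (13.5%, against 4.96% of all genes lower), led by Nle1 (-0.48), Nvl (-0.38) and Rrp1b (-0.38), with a median of -0.22, and 15 with the replicate block (23.5% of all genes in either direction). The count was 3 without array 3 of deleted cells with LIF, 2 and 1 without arrays 2 and 3 of wild type cells and 1 and 0 without arrays 2 and 3 of deleted cells, both without LIF. Of 35 small nucleolar and 40S processing genes 3 fell (8.57%), Nop56 (-0.59), Noc4l (-0.40) and Wdr43 (-0.40), and 9 with the block. That count of 3 was 5 without array 1 of wild type cells with LIF, 1 without array 3 of wild type or of deleted cells without LIF and 2 without array 2 of the latter. Polr1a (-0.56) fell among 15 RNA polymerase I genes (6.67%), and 4 were lower with the block. The median of the 15 was 0.06, with 6 below 0. Of 72 mitochondrial ribosomal proteins 1 rose and 9 fell (12.5% lower, against 4.96% of all genes), led by Mrpl34 (-0.64), Mrpl3 (-0.54) and Mrpl44 (-0.50). With the block 2 were higher and 17 lower. Of 29 initiation factors Eif1b (0.37) rose, where 6.27% of all genes were called higher, and with the block 1 was higher and 3 lower. On LIF removal in wild type cells 11.0% of all genes were called higher and 10.2% lower. There 1 of 37 assembly factors rose and 7 fell (18.9%), led by Noc3l (-0.63) and Las1l (-0.48). Of 15 RNA polymerase I genes 2 rose and 7 fell (46.7%), led by Cd3eap (-0.72). Polr2e, Polr2f and Polr2l were among the 7, and Polr1a (0.32, adjusted p = 0.013) was among the 2 that rose. Of the 13 other mRNAs known to carry a TOP tract, Eif3f (0.34) alone passed, with a median of 0.18 and 0 of 13 below 0. In deleted cells 0 of 37 assembly factors passed on LIF removal by limma (4 with the replicate block). Rrp9 (-0.61) and Tbl3 (-0.45) of the small nucleolar and 40S processing genes fell (5.71%, against 5.94% of all genes lower). No gene of these lists passed the interaction. Of the 53 calls that a rule of up to 3 genes per list and comparison picked from these other lists, 21 stood with any 1 of the 12 arrays left out and 6 under all of the other settings run.

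**Figure D5:**
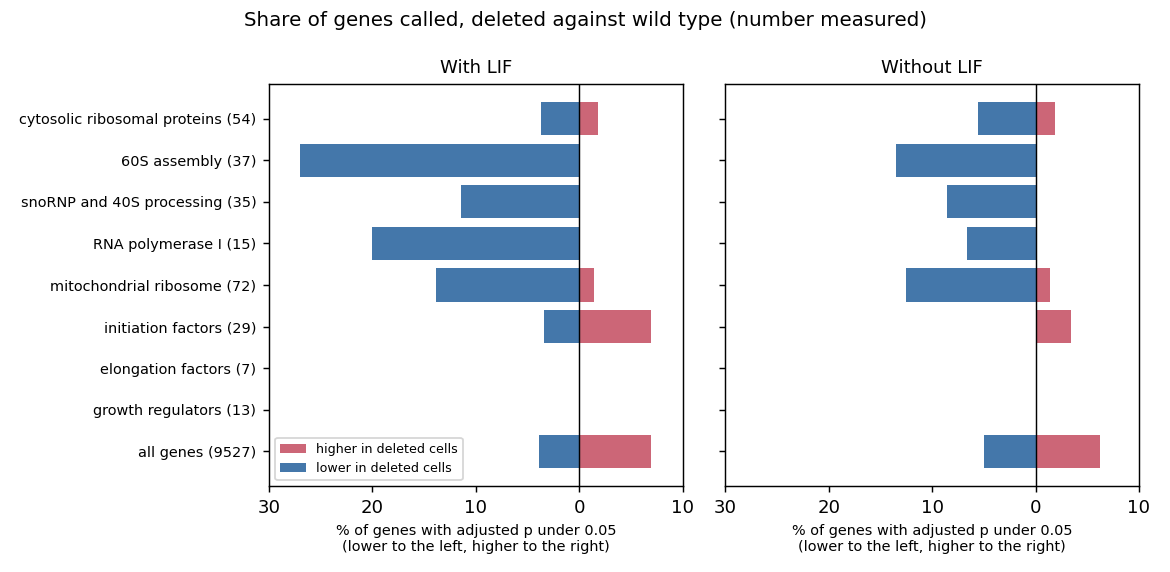
Share of each gene list with adjusted p under 0.05 in deleted against wild type cells, with LIF (left) and without it (right), lower genes to the left of 0 and higher genes to the right, with the number of genes measured in brackets. With LIF the bar of 60S assembly factors (10 of 37 lower) is the longest, and the cytosolic ribosomal proteins have 3 of 54 called.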

How the data were processed

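Both deposited tables, of 45281 probes each, were used. The non-normalized table holds bead intensity averages with detection p-values, per the file headers, and the deposited detection p-values, joined to the other table by the rank order of each array, were used to keep probes and to estimate background in 1 alternative. The other table holds the authors' processed intensity on a linear scale, and its 12 columns share 1 distribution of values. The submitters' processing notes name GenomeStudio, and its settings are not given in the sources used here. A single gene symbol was annotated for 34885 probes, more than 1 for 18 and none for 10378. Kept probes numbered 15999. The log2 of the processed intensities was fitted with limma 3.58.1 (R 4.3.3) as 4 group means over all 12 arrays, and p-values were adjusted by Benjamini-Hochberg over 9527 genes. Between 14872 and 18907 probes were detected per array, and 3 arrays a group limit the precision. Alternatives changed background correction, scaling (from the non-normalized values), the detection filter, the probe rule, the block and the arrays. The script was tested on simulated data. The members and gene lists were chosen with earlier results of these data known. Named members were those past the threshold or fixed by role, with up to 3 genes of each other list per comparison. Arrays correlated at 0.977 to 0.995 within and 0.934 to 0.983 between groups. Same-numbered arrays correlated positively in all 3 pairs of each deletion comparison and of LIF removal in deleted cells (lowest correlations 0.329, 0.288 and 0.373). For array 3 of the deletion comparison without LIF (0.288), an array of another number matched better, so the pairing there was only partly borne out. The replicate number of the sample record was taken to pair the arrays of these comparisons, and the fit with it as a block is given beside those results. The same block setting was also run for LIF removal in wild type cells and for the interaction. Same-numbered wild type arrays with and without LIF did not all match (lowest correlation -0.037). Nor did wild type arrays with LIF and deleted arrays without it (lowest correlation 0.006). Every block fit took 1 effect per replicate number over all 12 arrays. The poor match across cultures therefore limits all block results, those of the deletion comparisons included.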

Additional observations from a re-analysis of the deposited data

How the results depend on the processing

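The 3 members called for the deletion with LIF became 5 with the replicate block, 1 under median scaling over all or over detected probes, and 0 under the neqc-type route or under background correction with median scaling over detected probes, a setting chosen after seeing the data. Leaving out 1 array gave 0 to 4. The 4 without LIF became 7 with the replicate block, 1, 0 and 2 under scaling over all probes, scaling over detected probes and the neqc-type route, and 0 under the added setting, with 0 to 5 when 1 array was left out. The 4 for LIF removal in wild type became 9 with the replicate block (16.7%, against 32.7% of all genes). Same-numbered arrays there did not all deviate together (correlations -0.037 to 0.562). The count was 2 under either scaling and 1 under the added setting, with 2 to 6 on leaving out 1 array. The 1 in deleted cells became 3 with the replicate block, 3 and 2 under the scalings, 2 with the mean of kept probes, and 0 with probes detected on all 12 arrays or under the added setting, with 0 to 2 on leaving out 1 array. The interaction had 0 under every setting run. Apart from the block, the share of all genes under these settings is not given, so the counts show only how calls moved.

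The median member difference moved with the scaling. With LIF it was 0.107 (all probes), above 0 where the main value was below it, and -0.054 to 0.022 on leaving out 1 array. Without LIF it was -0.241 (detected probes) and -0.314 (added setting), and -0.077 to -0.033 on leaving out 1 array. LIF removal in wild type gave 0.24 and 0.308, and 0.06 to 0.115; in deleted cells it gave -0.167 (all probes) and -0.074 (detected probes), and -0.036 to 0.023. The interaction gave -0.234, -0.289 and -0.311, and -0.112 to -0.027. Under the other naming of the arrays the medians for LIF removal in wild type and for the interaction were -0.086 and 0.085, by construction of opposite sign. For the 11 members of middle level the median without LIF ran from -0.36 to -0.19 over 21 settings other than the naming, with 9 to 11 below 0, and was -0.10 under the other naming. The causes were not tested. Of 1588 comparisons of a called result with an alternative, none changed sign, 343 lost a call and 15 gained one. These results had been called in the main fit or with the replicate block, so the choice itself favoured a stable sign. Named members that were never called, and the other naming of the arrays, were not in this count.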
